A study of Caenorhabditis elegans with 82 samples.

Results

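The 5 genes described here, ftn-1, ftn-2, smf-3, hrg-1 and hrg-4, handle iron and heme in the nematode Caenorhabditis elegans. They were chosen by name for their known roles, and all 5 were found among the 46748 genes of the deposited table and passed the filter on low counts. Worms of N2, the laboratory wild type, were raised from synchronized first-stage larvae on 1 of 4 bacterial lawns, the Escherichia coli strain OP50, the Ochrobactrum isolates MYb71 or MYb65, or a mixture of both isolates (Mix). The study's text names its second isolate MYb237, whereas the sample labels write MYb65, which is kept here. Whole worms were sampled at 6 stages, the larval stages L2, L3 and L4 (labelled 6, 24 and 48 h), first-day adults (Ad1, 72 h) and adults of day 3 and day 7 (Ad3 and Ad7). Each library pooled many hermaphrodites from an independent run of the exposure. Before it, worms had been kept for more than 1 generation on plates with the bacteria used. The diet of the parents thus cannot be told apart from that of the worms sampled. Larvae were washed off the plates while adults were picked by hand, so the way of collection changed between L4 and Ad1 and cannot be told apart from that step.

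Of 82 deposited libraries 71 were used, 18 on OP50, 18 on MYb71, 17 on MYb65 and 18 on Mix, which makes 3 per group and 2 for MYb65 at L2. The study states 3 replicates, and replicate 3 was left out wherever 4 were deposited. Total counts per used library ranged from 10513060 to 74552875 with a median of 21700247. Of the 11 left out, the library labelled OP50 L2 replicate 3 was closest over all genes to the Ad3 mean (r = 0.99, and 0.78 to L2) and the library labelled OP50 L3 replicate 3 to the Ad7 mean (r = 0.987, and 0.737 to L3). The unit of levels is CPM, a gene's count relative to its library's TMM-scaled total. Differences were tested with the quasi-likelihood test of edgeR, with Benjamini-Hochberg adjustment over all genes tested and a threshold of 0.05.

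Iron is both needed and harmful, so cells import it on demand and store the surplus inside ferritin shells. In C. elegans ferritin is encoded by ftn-1, which is expressed mainly in the intestine, and by ftn-2, which is expressed more widely. The importer SMF-3, the worm counterpart of the divalent metal transporter DMT1, takes up iron from the gut lumen. The hypoxia-inducible factor HIF-1 is known to lower ferritin and to raise smf-3 transcripts when iron is scarce, and the intestinal GATA factor ELT-2 activates both ftn-1 and smf-3. C. elegans cannot make heme and takes it from its bacterial food. HRG-4 imports heme across the surface membrane of intestinal cells and HRG-1 releases it from endosomes and lysosomes, and both genes are known to be induced when heme is low.

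All 5 gene models lie apart from each other in the assembly WBcel235. The ferritin gene ftn-1 lies at chromosome V, 7546468 to 7547579, on the minus strand with 606 exonic bases, and ftn-2 at chromosome I, 3680180 to 3680927, on the minus strand with 651. The importer gene smf-3 lies at chromosome IV, 2618869 to 2625503, on the plus strand with 1942 exonic bases. The heme gene hrg-1 lies at chromosome X, 4008057 to 4016221, on the minus strand with 1456 exonic bases, and hrg-4 at chromosome IV, 11030143 to 11030993, on the minus strand with 632. Only hrg-1 overlaps other annotated genes, mop-25.1 and the noncoding R02E12.9, and it shares 0 exonic bases with them. Strand was not marked in these libraries. Reads shared by the similar ferritin genes, or by hrg-4 and its relatives hrg-5 and hrg-6, may have been split or dropped, since the treatment of such reads is not stated.

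The ferritin gene ftn-2 was by far the most abundant of the 5 transcripts. Per kilobase of exon, its mean level over the 71 libraries was 337 CPM, against 51.8 for ftn-1, 8.90 for hrg-1, 5.62 for hrg-4 and 3.05 for smf-3. The depth behind these values differs accordingly. Counts per library lay between 1323 and 23973 for ftn-2, between 16 and 2678 for ftn-1, between 70 and 1572 for hrg-1, between 26 and 321 for smf-3 and between 4 and 320 for hrg-4. The counts of hrg-4 in adults are thus the least precise.

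Stage set most of the variation of every member except smf-3, for which replicates took the larger share. It took 87.7% of the sum of squares of log2 CPM for ftn-2, 69.7% for hrg-1, 66.4% for ftn-1, 61.6% for hrg-4 and 40.1% for smf-3. The bacterium within a stage took 4.65% for ftn-2, 8.59% for hrg-1, 9.05% for ftn-1, 10.5% for hrg-4 and 13.2% for smf-3. What remained between replicates of a group was larger than the share of the bacterium for all 5, at 7.67% for ftn-2, 21.7% for hrg-1, 24.5% for ftn-1, 27.9% for hrg-4 and 46.7% for smf-3. These are plain sums of squares, so spread between replicates alone also adds to the share of the bacterium. The shares therefore do not show an effect of the bacterium, nor rank the genes by it.

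**Figure D1:**
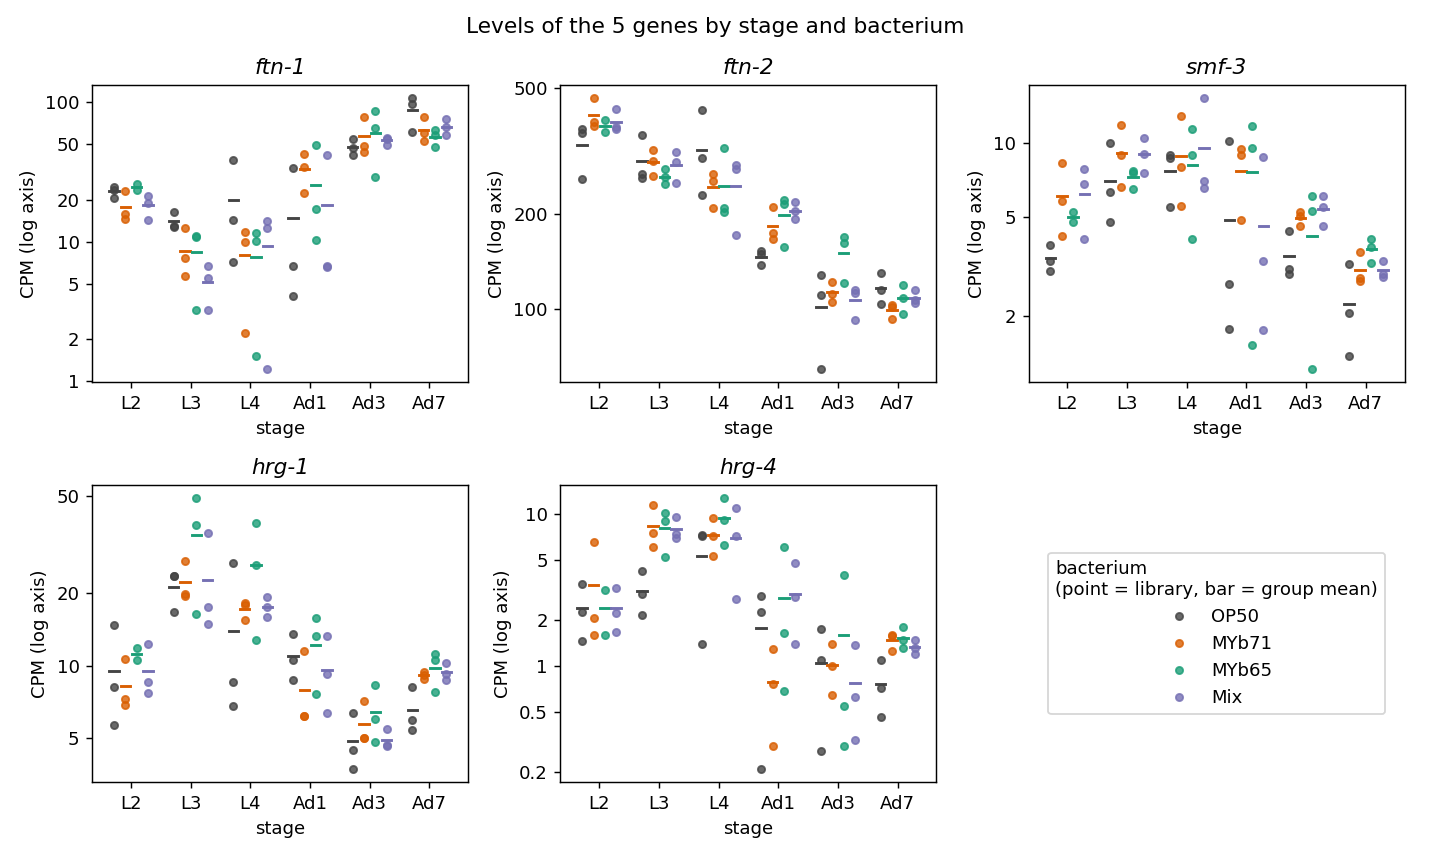
Level of each of the 5 genes (CPM, log axis) in the 71 libraries by stage (x axis) and bacterium (color), with a bar at each group mean. From L2 to L3 the stage means of ftn-1 (20.9 to 9.04 CPM) and ftn-2 (378 to 283) were both lower, and from L3 to Ad7 ftn-1 went up to 68.8 and ftn-2 down to 108, while hrg-1 and hrg-4 were highest at L3 and L4.

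Both ferritin transcripts were lower at L3 than at L2, and from L3 to Ad7 their levels ran in opposite directions. Averaged over the 4 bacteria, ftn-1 stood at 20.9, 9.04, 11.3, 23.0, 54.7 and 68.8 CPM from L2 to Ad7. In the same groups ftn-2 stood at 378, 283, 263, 183, 117 and 108 CPM. For ftn-1 the 12 libraries at Ad7 ranged from 47.8 to 107 CPM and the 12 at L3 from 3.25 to 16.3. For ftn-2 these ranges were 92.7 to 130 and 248 to 356. The highest group mean of ftn-1 was that of OP50 at Ad7 (88.4 ± 24.3 CPM, SD, n = 3) and the lowest that of Mix at L3 (5.16 ± 1.76). For ftn-2 the highest was MYb71 at L2 (410 ± 46.3) and the lowest MYb71 at Ad7 (98.8 ± 5.34). In the order of the 24 group means, a gap to the next group exceeded the larger SD of both at 1 of 23 places for ftn-1 and at 3 of 23 for ftn-2, so most neighbors did not differ beyond their spread.

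The genes of uptake were highest in mid larvae. The stage means of smf-3 were 5.19, 8.07, 8.53, 6.19, 4.51 and 3.01 CPM from L2 to Ad7, and its group means ran from 9.55 ± 4.80 for Mix at L4 down to 2.22 ± 0.944 for OP50 at Ad7. The heme gene hrg-1 stood at 9.61, 25.0, 18.6, 10.2, 5.49 and 8.71 CPM, with MYb65 at L3 highest (34.5 ± 16.6) and OP50 at Ad3 lowest (4.86 ± 1.35). The heme importer gene hrg-4 stood at 2.65, 6.87, 7.21, 2.09, 1.11 and 1.27 CPM, with MYb65 at L4 highest (9.36 ± 3.22) and OP50 at Ad7 lowest (0.758 ± 0.318). For these 3 genes 0 of 23 neighbors in the order of groups differed beyond their spread.

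To ask at which molt or adult interval each transcript changed, consecutive stages were compared in 1 model of all 24 groups, on each bacterium and as the mean over the 4 bacteria. All 5 members passed the test from L2 to L3 in the mean, where 54.8% of all genes tested did and their median log2 change was -0.11. Levels of hrg-1 ranged from 5.68 to 14.6 CPM in 11 libraries at L2 and from 14.8 to 49.0 CPM in 12 at L3. The heme genes rose, hrg-1 by 1.36 on the log2 scale (SE 0.20, adjusted p = 1.19e-07) and hrg-4 by 1.29 (SE 0.36, adjusted p = 0.0022), and smf-3 rose by 0.67 (SE 0.27, adjusted p = 0.0305). Both ferritin genes fell, ftn-1 by 1.28 (SE 0.35, adjusted p = 0.00157) and ftn-2 by 0.41 (SE 0.10, adjusted p = 0.000551). Less the median of 11 intestine markers, which was 0.50 at this step, the differences were 0.16 for smf-3, 0.79 for hrg-4, 0.85 for hrg-1, -1.79 for ftn-1 and -0.92 for ftn-2. The call of smf-3 was lost with replicate 1 or replicate 2 left out (adjusted p = 0.141 and 0.249), with upper-quartile scaling and without the filter, and that of hrg-4 without replicate 2 (log2 change 1.1, adjusted p = 0.0771). On single bacteria, where 27.3% of genes passed on OP50, 19.1% on MYb71, 22.7% on MYb65 and 23.7% on Mix, hrg-1 rose on each of the 4 and ftn-1 fell on Mix (-1.83, SE 0.70, adjusted p = 0.0497).

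From L3 to L4 hrg-1 alone passed in the mean, falling by 0.43 (SE 0.19, adjusted p = 0.0335), at a step where 80.8% of genes passed. Without replicate 1, 2 or 4 its adjusted p was 0.0544, 0.0881 or 0.0683. With TMM scaling and all used libraries, no member passed by edgeR on a single bacterium, although 60.6% of genes did on OP50, 63.9% on MYb71, 60.1% on MYb65 and 59.1% on Mix. The number of members at an unadjusted p under 0.05 was also 0 on each bacterium, and DESeq2 called 0 of them there. Under upper-quartile scaling ftn-2 was called in the mean (-0.48, adjusted p = 2.43e-05, against -0.12 with TMM). It was then also called on MYb71 (-0.77, adjusted p = 0.000744) and Mix (-0.56, adjusted p = 0.0131), as was hrg-1 on MYb71 (-0.89, adjusted p = 0.0374). These fits called 68.6% of genes on MYb71 and 62.9% on Mix. Without replicate 1 hrg-1 was called on OP50 (-1.37, adjusted p = 0.0108), beside 44.5% of genes. Without replicate 3 ftn-2 was called on MYb71 (-0.41, adjusted p = 0.0429), beside 65.8% of genes. No used MYb71 library was numbered 3, so that fit left out libraries of other bacteria only.

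From L4 to Ad1, 4 of the 5 members passed in the mean, against 63.1% of all genes. The heme importer hrg-4 fell by 1.93 (SE 0.36, adjusted p = 6.72e-06), hrg-1 by 0.85 (SE 0.19, adjusted p = 0.00013) and ftn-2 by 0.53 (SE 0.10, adjusted p = 9.01e-06). The ferritin gene ftn-1 rose by 1.08 (SE 0.34, adjusted p = 0.00509), and this mean rested on the libraries numbered 3, without which it was 0.16 (adjusted p = 0.656). On OP50 the change was -0.45 (SE 0.67) with all 3 libraries and -2.35 (adjusted p = 0.00419) without replicate 3. On MYb71, where no used library was numbered 3, ftn-1 rose by 2.05 (adjusted p = 0.0215). That call was lost without replicate 2 or 4 (adjusted p = 0.138 and 0.219). On single bacteria 43.8% of genes passed on OP50, 28.8% on MYb71, 27.6% on MYb65 and 28.7% on Mix, and ftn-2 fell on OP50 by 1.12 (SE 0.20, adjusted p = 1.33e-05) and hrg-4 on MYb71 by 3.23 (SE 0.77, adjusted p = 0.00129). Levels of hrg-4 nevertheless overlapped between the stages, from 1.39 to 12.7 CPM at L4 and from 0.211 to 6.06 at Ad1. At this step hrg-1 fell on MYb71 (-1.1, adjusted p = 0.0258) and MYb65 (-1.09, adjusted p = 0.0294). Both calls were lost without replicate 2 or 4. The mean change of smf-3, -0.50 (adjusted p = 0.086), became -0.90 (adjusted p = 0.0046) without replicate 3.

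From Ad1 to Ad3 the mean change of ftn-1 was 1.31 (SE 0.34, adjusted p = 0.00133), and without replicate 3 it was 2.08 (adjusted p = 2.35e-06), with the value on OP50 going from 1.69 to 3.25 and that on Mix from 1.53 to 3.03. At this step ftn-2 fell by 0.64 (SE 0.10, adjusted p = 9.94e-07) and hrg-1 by 0.88 (SE 0.19, adjusted p = 0.000229). Here 50.1% of all genes passed in the mean, and their median log2 change was -0.22. The mean change of hrg-4, -0.77 (adjusted p = 0.0744), became -1.38 (adjusted p = 0.0239) without replicate 1 and -1.02 (adjusted p = 0.0403) without replicate 3. On single bacteria 8.95% of genes passed on OP50, 4.18% on MYb71, 9.14% on MYb65 and 7.62% on Mix. Of the members hrg-1 fell on OP50 (-1.16, adjusted p = 0.0474) and ftn-2 on MYb71 (-0.70, adjusted p = 0.0328) and Mix (-0.94, adjusted p = 0.0016). From Ad3 to Ad7, where 15.1% of genes passed in the mean, hrg-1 rose by 0.66 (SE 0.19, adjusted p = 0.0138), which was lost without replicate 1, 2 or 4 (adjusted p = 0.0652, 0.201 and 0.0526). On single bacteria 0.321% of genes passed on OP50, 0.49% on MYb71, 1.01% on MYb65 and 1.51% on Mix, and by edgeR 0 members did, with 0 on OP50, 0 on MYb71, 1 on MYb65 and 1 on Mix at an unadjusted p under 0.05 and 0 called by DESeq2. Over the 5 steps the members gave 14 calls of 25 in the mean of the 4 bacteria, 3 of 25 on OP50, 5 on MYb71, 2 on MYb65 and 3 on Mix. Of these 13 calls on single bacteria, 11 were lost with at least 1 replicate number left out, and 2 were not, those of ftn-2 on OP50 and of hrg-4 on MYb71 from L4 to Ad1.

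**Figure D2:**
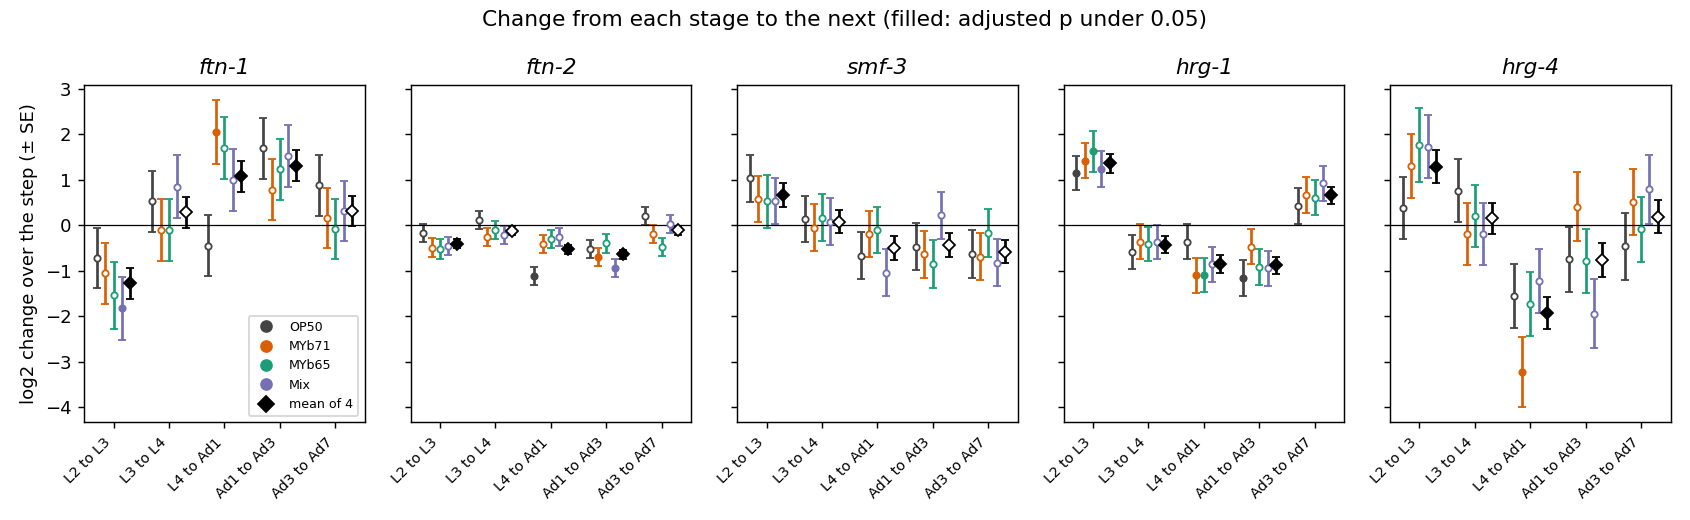
Log2 change of each gene from 1 stage to the next (y axis, bars are ± SE) over the 5 steps (x axis), on each bacterium (circles) and as the mean over the 4 bacteria (diamonds), filled where the adjusted p was under 0.05. From L2 to L3 hrg-1 (1.36) and hrg-4 (1.29) rose while ftn-1 fell by 1.28 in the mean, and from L4 to Ad1 hrg-4 fell by 1.93.

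Levels of tissue markers moved with stage. The summed level of 11 intestine markers, none at 0 in any library, ranged from 2260 to 4460 CPM among L2 libraries, 2100 to 5870 among L3, 1200 to 3030 among L4, 604 to 1560 among Ad1, 220 to 910 among Ad3 and 319 to 408 among Ad7. That of 10 germline markers ranged from 46.0 to 77.1 CPM at L2 and from 4650 to 5470 at Ad7. In whole worms, fewer cells of a type and less RNA per cell cannot be told apart. Set against the median change of the intestine markers, ftn-1 rose by more (difference 2.08 from L4 to Ad1 and 2.36 from Ad1 to Ad3, log2). The falls of ftn-2 at the same steps became differences of 0.48 and 0.41, and those of hrg-1 became 0.15 and 0.17, while hrg-4 from L4 to Ad1 stayed lower (difference -0.93). Since ftn-2 is expressed more widely than ftn-1, the intestine markers are only a partial reference for it.

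Replicates of some genes spread widely around the molt to adulthood. The pooled SD of log2 CPM within groups was 1.54 at L4 and 1.26 at Ad1 for ftn-1, against 0.263 at L2 and 0.296 at Ad7. The L4 libraries of ftn-1 were spread on every bacterium, at 38.7, 14.4 and 7.12 CPM on OP50, 11.7, 9.98 and 2.22 on MYb71, 10.2, 11.6 and 1.51 on MYb65 and 12.6, 1.23 and 14 on Mix. The OP50 library at 38.7 CPM also had the lowest marker sums of its group, with muscle markers at 875 CPM against 8260 and 8050 and intestine markers at 1200 against 2810 and 2510, and the lowest r to its own stage mean of the used libraries (0.939). On OP50 at Ad1, ftn-1 stood at 6.65, 4.07 and 34.0 CPM and smf-3 at 2.67, 1.76 and 10.1 CPM in replicates 1, 2 and 3. In the same 3 libraries hrg-4 stood at 2.25, 2.87 and 0.211 CPM. Replicate 3 was thus high in ftn-1 and smf-3 and low in hrg-4, and its summed germline markers stood at 2480 CPM against 3910 and 4920.

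The same division ran through the Mix group at Ad1. There ftn-1 stood at 6.72, 6.64 and 42.2 CPM, smf-3 at 1.74, 3.32 and 8.76 and hrg-4 at 4.73, 2.85 and 1.41 in replicates 1, 2 and 3, with summed germline markers of 5430, 4110 and 3050 CPM and intestine markers of 1490, 1560 and 722. On MYb65 ftn-1 stood at 49.2, 10.3 and 17.3 CPM in replicates 1, 2 and 4, beside smf-3 at 9.55, 1.51 and 11.7 and germline markers at 3090, 4740 and 2650. On MYb71 the 3 libraries stood closer together, with ftn-1 at 22.5, 42.8 and 34.2 CPM. The part of tissue makeup or of the exact age of the worms in this spread was not tested.

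Of the 10 pairs of members, 7 had related deviations from group means over the 71 libraries by Pearson's r after adjustment and 0 by Spearman's rho. In the strongest, deviations of smf-3 from its group means ran against those of hrg-4 (r = -0.583, permutation within groups p = 0.00386, adjusted over 10 pairs of members 0.0382, and rho = -0.369, permutation p = 0.0207, adjusted 0.0759). Without the 2 libraries farthest from the median of smf-3, r was -0.479. Within the stages from L2 to Ad7 r was 0.839, -0.124, -0.359, -0.884, -0.775 and -0.252, so the relation had the opposite sign at L2. For ftn-1 and smf-3 r was 0.446 (permutation p = 0.0221, adjusted 0.0413) and rho 0.243 (permutation p = 0.139, adjusted 0.173), with 0.491 without the 2 libraries farthest from the median of ftn-1. Within stages that r ran from -0.749 at L2 to 0.799 at Ad1.

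**Figure D3:**
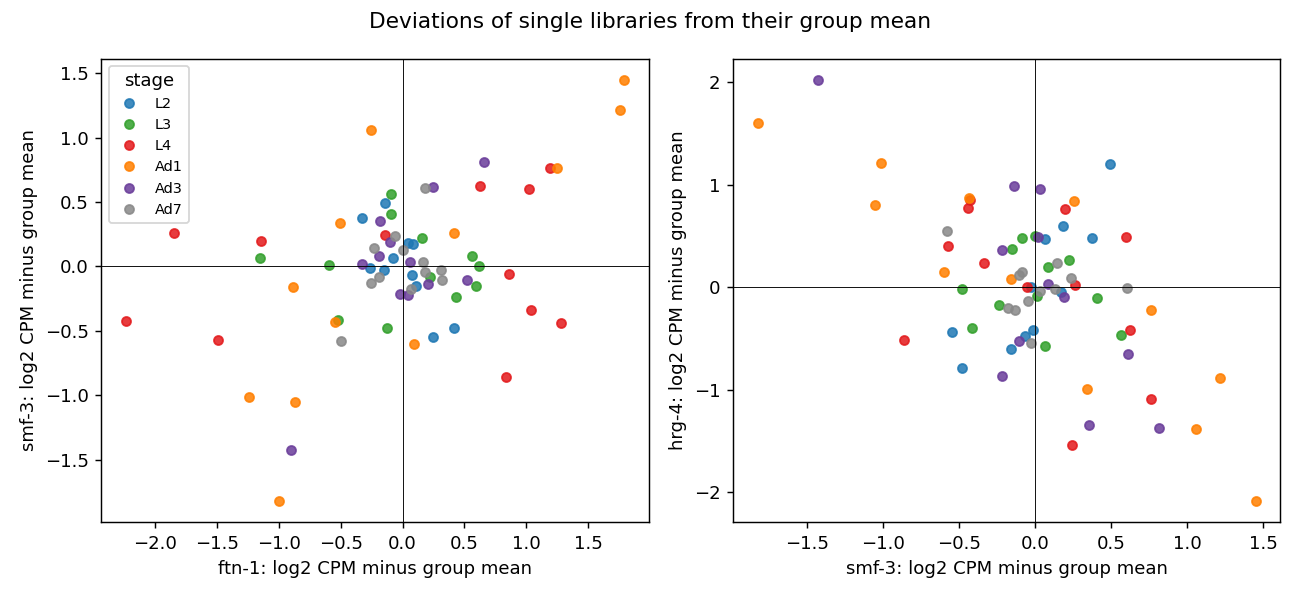
Deviation of each of the 71 libraries from its group mean (log2 CPM) for smf-3 against ftn-1 (left) and hrg-4 against smf-3 (right), colored by stage. At Ad1 libraries high in smf-3 were high in ftn-1 (r = 0.799) and low in hrg-4 (r = -0.884), whereas at L2 the signs were opposite (-0.749 and 0.839).

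The question of the study was how worms respond to Ochrobactrum in place of OP50. Across stages, in a model of stage and bacterium, 0 of the 5 members passed by edgeR on MYb71, MYb65 or Mix, where 3.61%, 3.21% and 2.82% of all genes did. At an unadjusted p under 0.05 there were 1, 2 and 1 members, beside 14%, 16.7% and 12.2% of all genes, and DESeq2 called 0 members in each comparison. The 3 comparisons share the OP50 libraries. The closest to the threshold was hrg-1 on MYb65, 0.50 above OP50 on the log2 scale (SE 0.16, adjusted p = 0.0731), beside 0.06 (SE 0.16) on MYb71 and 0.12 (SE 0.15) on Mix. The direct difference of MYb71 from MYb65 was -0.43 for hrg-1 (SE 0.16, adjusted p = 1).

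For the other members the values across stages were as follows. The importer smf-3 stood 0.51 above OP50 on MYb71 (SE 0.20, adjusted p = 0.175), 0.39 on MYb65 (SE 0.20, adjusted p = 0.321) and 0.44 on Mix (SE 0.20, adjusted p = 0.328). The heme importer hrg-4 stood 0.41 (SE 0.31), 0.76 (SE 0.31, adjusted p = 0.173) and 0.48 (SE 0.29) above OP50. The ferritin gene ftn-1 had values of -0.30 (SE 0.27), -0.33 (SE 0.27) and -0.53 (SE 0.27, adjusted p = 0.417), and ftn-2 of 0.02, 0.09 and 0.04 with SEs of 0.09 to 0.10. With all 82 libraries, which include both OP50 libraries that resemble adults, ftn-1 on Mix was called (-0.79, adjusted p = 0.0435).

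**Figure D4:**
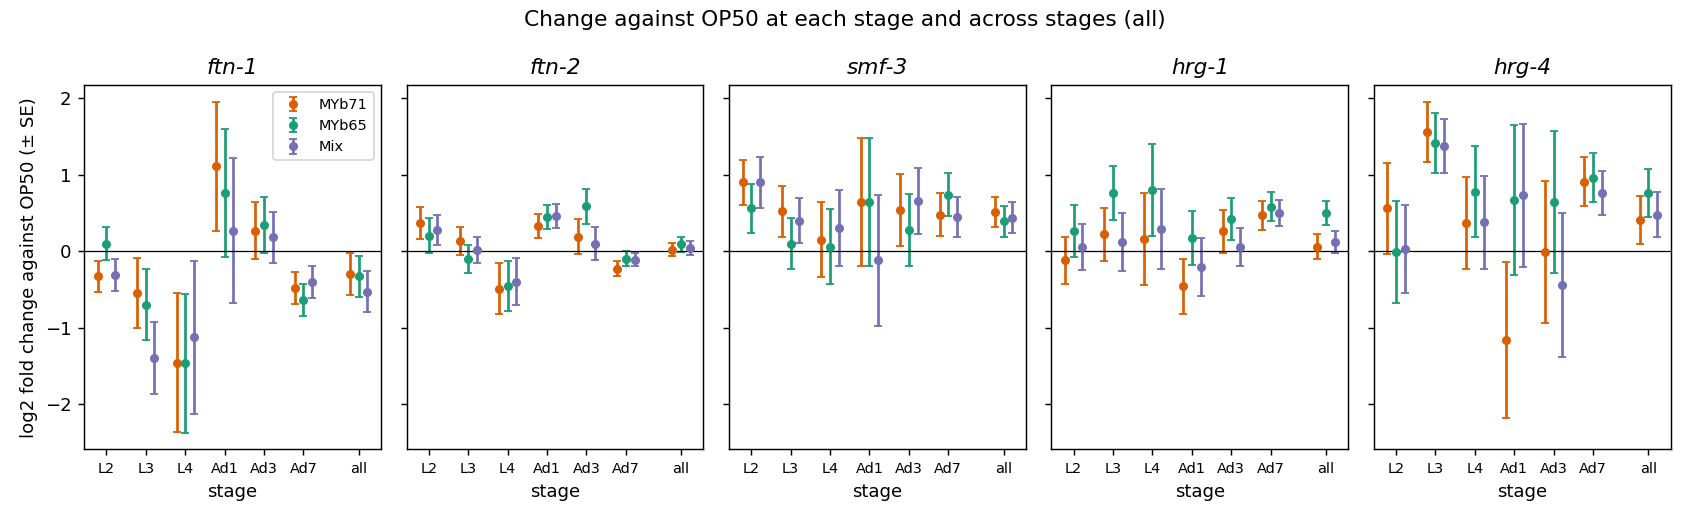
Log2 fold change against OP50 (y axis, bars are ± SE) of each gene on MYb71, MYb65 and Mix at each stage and across stages (all). None passed the threshold; the largest values above OP50 were those of hrg-4 at L3 (1.56, 1.42 and 1.38).

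Within single stages the 5 members gave 90 comparisons with OP50, of which edgeR called 0 and DESeq2 3, while the unadjusted p was under 0.05 in 19. Of all genes 1.88% to 10.3% had an unadjusted p under 0.05, by stage and bacterium. On MYb71, from L2 to Ad7, 0.641%, 0.309%, 0.0449%, 0.00668%, 0.0142% and 0.343% of genes passed. On MYb65 these shares were 0.457%, 0.422%, 0.0449%, 0.00668%, 0.00712% and 0.204%, and on Mix 0.64%, 0.584%, 0.0316%, 0%, 0.0706% and 0.476%. In 23 of the 90 comparisons the libraries of both groups did not overlap, 19 with the treated group above OP50 and 4 below. Over all genes, groups did not overlap in 14.2%, 13.8%, 4.55%, 6.93%, 11% and 11.4% of cases on MYb71 from L2 to Ad7, in 28.2%, 21.5%, 3.32%, 3.65%, 8.46% and 11.4% on MYb65, and in 12.6%, 17%, 3.78%, 3.98%, 12.4% and 13.2% on Mix.

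The heme importer hrg-4 at L3 was the clearest of these. On OP50 it stood at 2.97, 2.15 and 4.21 CPM, on MYb71 at 6.10, 7.47 and 11.4, on MYb65 at 8.96, 10.1 and 5.19 and on Mix at 9.48, 7.41 and 6.98. All 9 libraries on Ochrobactrum lay above all 3 on OP50. The log2 fold change was 1.56 on MYb71 (SE 0.39, adjusted p = 0.237), 1.42 on MYb65 (SE 0.39, adjusted p = 0.326) and 1.38 on Mix (SE 0.35, adjusted p = 0.174). DESeq2 called it on all 3 (adjusted p = 0.0127, 0.0387 and 0.0122), in fits that called 2.45%, 1.85% and 1.94% of genes. Replicate numbers were taken as pairing the OP50 and MYb71 libraries at L3 from these same data (r of 0.366 to 0.634), not from the labels. With replicate as a block the change on MYb71 was 1.54 (adjusted p = 0.0321), in an edgeR fit that called 0.724% of genes. Since the pairing was read from these data, that call adds no independent evidence. The summed intestine markers overlapped between the groups, with 5230, 4070 and 2900 CPM on OP50 against 2100 to 5870 on the others. Muscle markers stood at 10200, 8400 and 4030 CPM on OP50 and at 11300, 12800 and 10700 on Mix, which did not overlap, and on MYb71 at 12700, 9520 and 2200, the last in the library with hrg-4 at 11.4 CPM. The part of tissue makeup in this difference was not tested. The gene is also among those the study picked as changed on these samples, so its direction here is not independent evidence.

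At Ad7 hrg-4 again lay apart, at a level near 1 CPM. It stood at 1.1, 0.715 and 0.464 CPM on OP50, at 1.57, 1.25 and 1.6 on MYb71, at 1.47, 1.31 and 1.8 on MYb65 and at 1.31, 1.48 and 1.2 on Mix. The log2 fold changes were 0.91 (SE 0.32, adjusted p = 0.533), 0.96 (SE 0.32, adjusted p = 0.416) and 0.76 (SE 0.29, adjusted p = 0.471). At Ad1 and Ad3 its groups overlapped and its SEs were 0.93 to 1.02.

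The other heme gene, hrg-1, stood at Ad7 at 8.18, 5.97 and 5.44 CPM on OP50, at 9.13, 8.82 and 9.39 on MYb71, at 11.2, 10.5 and 7.77 on MYb65 and at 10.2, 8.72 and 9.24 on Mix. Libraries on MYb71 and Mix lay above every OP50 library and those on MYb65 overlapped with them. The log2 fold changes were 0.47 (SE 0.19, adjusted p = 0.625), 0.58 (SE 0.19, adjusted p = 0.385) and 0.50 (SE 0.17, adjusted p = 0.377). At L3 the value on MYb65 was 0.76 (SE 0.35), with libraries at 49.0, 38.1 and 16.4 CPM against 23.3, 23.3 and 16.6 on OP50, so that the groups overlapped.

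The iron importer smf-3 had a positive value against OP50 at 6 of 6 stages on MYb71, 6 of 6 on MYb65 and 5 of 6 on Mix, with the same OP50 libraries in each. On MYb71 and Mix the largest were at L2 and on MYb65 at Ad7 (0.74, SE 0.28, adjusted p = 0.475). At L2 it stood at 3.33, 3.04 and 3.86 CPM on OP50, at 4.19, 5.82 and 8.29 on MYb71, at 5.25 and 4.78 on MYb65 and at 4.08, 7.81 and 6.78 on Mix. Every library on Ochrobactrum lay above those on OP50 at that stage. The log2 fold change was 0.90 on MYb71 (SE 0.29, adjusted p = 0.326), 0.56 on MYb65 (SE 0.32, adjusted p = 0.818) and 0.90 on Mix (SE 0.33, adjusted p = 0.476).

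The inducible ferritin gene ftn-1 lay below OP50 at L3 in all 3 comparisons. It stood at 12.7, 13 and 16.3 CPM on OP50, at 5.65, 7.61 and 12.5 on MYb71, at 10.9, 11.1 and 3.26 on MYb65 and at 5.53, 3.25 and 6.71 on Mix. No library on Ochrobactrum reached the lowest on OP50, although 12.5 CPM on MYb71 came close to 12.7. The log2 fold change was -0.55 (SE 0.46), -0.70 (SE 0.46) and -1.40 (SE 0.47, adjusted p = 0.431). At Ad7 the values were -0.48 (SE 0.21), -0.64 (SE 0.21, adjusted p = 0.415) and -0.41 (SE 0.21), and at Ad1 they were positive with SEs of 0.84 to 0.95.

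The second ferritin gene, ftn-2, had log2 values against OP50 from -0.49 to 0.59 over the 18 comparisons. At Ad1 it stood at 137, 152 and 148 CPM on OP50, at 173, 209 and 166 on MYb71, at 220, 215 and 157 on MYb65 and at 217, 193 and 203 on Mix. All 9 libraries on Ochrobactrum lay above the 3 on OP50. The log2 fold change was 0.33 (SE 0.16), 0.45 (SE 0.16) and 0.46 (SE 0.16), each with an adjusted p of 1. At L2 the libraries on MYb71 and Mix also lay above OP50 (0.37, SE 0.21, and 0.28, SE 0.20), while at Ad7 those on MYb71, at 103, 92.7 and 101 CPM, lay below OP50 at 103, 130 and 114, the nearest libraries being equal as rounded (-0.23, SE 0.10, adjusted p = 0.666).

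Differences between the bacteria other than OP50 and between larvae and adults were tested directly. Across stages 0 members differed between MYb71 and MYb65 by edgeR, where 0.0548% of genes did, and 0 between Mix and the mean of both isolates, where 0.0109% did, with 1 and 0 at an unadjusted p under 0.05 and 0 called by DESeq2. Within stages no member passed either by edgeR, with 0 at an unadjusted p under 0.05 and 0 called by DESeq2 at every stage. The shares of all genes from L2 to Ad7 were 0%, 0%, 0%, 0%, 0.0142% and 0.0876% between the isolates and 0%, 0%, 0%, 0%, 0.00706% and 0.036% for Mix. The change against OP50 in larvae minus that in adults passed for 0 members by edgeR, against 0.207%, 0.207% and 0.152% of genes on MYb71, MYb65 and Mix, with 1, 1 and 0 members at an unadjusted p under 0.05 and 0 called by DESeq2. An interaction of stage and bacterium with 15 degrees of freedom passed for 0.0871% of genes and 0 members, with an adjusted p of 1 for ftn-2, whose unadjusted edgeR p was the smallest of the 5.

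Of 4 other tested genes of iron uptake, storage and export 1 rose, fpn-1.2, a homolog of the iron exporter ferroportin. It rose on Mix across stages (0.74, SE 0.22, adjusted p = 0.0424), beside values of 0.69 on MYb71 and 0.79 on MYb65 (adjusted p = 0.102 and 0.0568). With replicate as a block the value on Mix was 0.73 (adjusted p = 0.0629), and it was not called with any 1 replicate number left out (adjusted p = 0.0728 to 0.306). It too is among the genes the study picked on these samples. The median of the 4 genes was -0.03, 0.02 and 0.06 on MYb71, MYb65 and Mix, against -0.03, 0.00 and -0.02 over all genes. Its relative fpn-1.1 had values of -0.15, -0.01 and 0.02.

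Of 9 regulators of iron genes 1 fell, rhy-1, a membrane protein that acts upstream of HIF-1 and is itself induced by it. It fell by 0.58 on MYb71 (SE 0.15, adjusted p = 0.014), 0.70 on MYb65 (SE 0.15, adjusted p = 0.00214) and 0.85 on Mix (SE 0.14, adjusted p = 1e-05). Of 6 HIF-1 targets, a list that also holds rhy-1, cysl-2, a cysteine synthase-like gene, fell on Mix by 0.69 (SE 0.20, adjusted p = 0.0376, and 0.0517 with replicate as a block), while F22B5.4 had values of 0.47, 0.16 and 0.41 and egl-9, the hydroxylase that marks HIF-1 for decay, of 0.31, 0.30 and 0.09. The medians of the HIF-1 targets were 0.12, -0.01 and -0.21 and those of the regulators 0.08, 0.07 and 0.09. Among the regulators daf-16, the insulin-pathway factor, had values of 0.17, 0.18 and 0.20.

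Of 8 genes of heme transport other than hrg-1 and hrg-4, hrg-10, for a heme chaperone-like protein, fell in all 3 comparisons, by 1.04 on MYb71 (SE 0.14, adjusted p = 1.06e-06), 0.77 on MYb65 (SE 0.15, adjusted p = 0.000322) and 0.95 on Mix (SE 0.13, adjusted p = 1.03e-07). On MYb65 hrg-7, a secreted protease-like signal of heme status, rose by 0.92 (SE 0.21, adjusted p = 0.00605), beside 0.40 on MYb71 and 0.45 on Mix (adjusted p = 0.409 and 0.31). It was not called without replicate 2 (0.59, adjusted p = 0.254), and MYb71 differed from MYb65 by -0.52 (SE 0.21, adjusted p = 1). Also on MYb65 hrg-3, which carries heme from the intestine to other tissues, rose by 1.65 (SE 0.49, adjusted p = 0.0483), from levels below 1 CPM at L3 on OP50 (0.168 ± 0.0902 CPM, SD, n = 3). At Ad7 it stood at 0 in all 3 OP50 libraries, so part of its fitted change rests on counts at or near 0. The exporter gene mrp-5 had values of 0.20, 0.30 and 0.22. The median of the 8 genes was 0.15 on MYb71, 0.16 on MYb65 and -0.04 on Mix.

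Of 13 genes listed under heme proteins 2 rose on MYb71, 3 on MYb65 and 2 on Mix. They were cbs-1, for cystathionine beta-synthase, whose mammalian counterpart binds heme (1.03, 1.01 and 1.00, SE 0.19 each), the catalase gene ctl-2 (0.43, 0.38 and 0.32) and, on MYb65 only by the threshold, the catalase gene ctl-1 (0.46, adjusted p = 0.0322, beside 0.42 on MYb71 at 0.0517 and 0.23 on Mix), while the direct difference of MYb71 from MYb65 was -0.04 (SE 0.13, adjusted p = 1) and that of Mix from both isolates -0.21 (SE 0.11, adjusted p = 1). At L3 cbs-1 stood at 45.2 ± 9.32 CPM on OP50 against 160 ± 56.6 on MYb71, 176 ± 12.4 on MYb65 and 220 ± 44.4 on Mix (SD, n = 3 each). These data do not show whether the worm protein of cbs-1 binds heme, so its rise is not read here as that of a heme protein. Medians of the list were 0.10, 0.12 and 0.08. The cytochrome c gene cyc-2.1 had values of -0.32, -0.32 and -0.25 and the globin gene glb-1 of 0.37, -0.06 and 0.29. None of 7 genes of iron-sulfur clusters passed by edgeR or DESeq2, while 2, 3 and 1 had an unadjusted p under 0.05, with medians of -0.15, -0.18 and -0.08. Of these frh-1, for frataxin, had values of -0.29, -0.27 and -0.26 and cisd-1 of -0.24, -0.22 and -0.14.

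Over the stage steps, in the mean of the 4 bacteria, 4 of the 8 heme transport genes other than hrg-1 and hrg-4 rose from L2 to L3 and 2 fell, where 54.8% of all genes were called in either direction. From L4 to Ad1 1 rose and 3 fell, where 63.1% of all genes were called. Medians of the 8 genes were 0.48 and -0.43, against -0.11 and -0.01 over all genes. Those that rose at the first of these steps included mrp-5 (0.78, SE 0.15, adjusted p = 2.07e-05) and hrg-7 (1.1, SE 0.26, adjusted p = 0.000345). From L4 to Ad1 hrg-7 fell by 1.43 (SE 0.25, adjusted p = 3.07e-06) and hrg-6, a relative of hrg-4, by 1.12 (SE 0.22, adjusted p = 1.6e-05), while hrg-10 rose by 0.39 (SE 0.15, adjusted p = 0.0221). These genes were picked after their values were seen.

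Marker genes of tissues bear on the same comparisons. Of 11 intestine markers ges-1, a gut esterase, rose on MYb71 (0.39, SE 0.09, adjusted p = 0.00592) and MYb65 (0.39, SE 0.09, adjusted p = 0.00826) and had a value of 0.26 on Mix, while ifc-2 had values of 0.37, 0.39 and 0.45 and ifd-2 of -0.37, -0.30 and -0.27. The medians of the intestine markers were 0.13, 0.07 and 0.18. None of 10 germline, 4 muscle and 5 neuron markers passed across stages by edgeR or DESeq2, where 0 germline, 0 muscle and 1 neuron marker had an unadjusted p under 0.05 on each bacterium, with list medians between 0.04 and 0.15. Less the intestine median, the values across stages were 0.38, 0.32 and 0.26 for smf-3 and 0.28, 0.69 and 0.30 for hrg-4 on MYb71, MYb65 and Mix. In the same order they were -0.43, -0.4 and -0.72 for ftn-1, -0.11, 0.02 and -0.15 for ftn-2 and -0.07, 0.42 and -0.07 for hrg-1. The part of tissue makeup in these values was not tested. Of all list genes called across stages, hrg-10 on MYb71 and Mix and rhy-1 on Mix were called whichever replicate number was left out, and each other call was lost at least once, for rhy-1 on MYb71 without replicate 1 at -0.40 (adjusted p = 0.605) and for hrg-10 on MYb65 without replicate 1 at -0.49 (adjusted p = 0.409).

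Among the members, hrg-1 and hrg-4 were most alike over the 24 group means of log2 CPM (r = 0.896, and 0.574 after the mean of each stage was subtracted), and ftn-1 ran most against hrg-4 (r = -0.877 and -0.692). These correlations are descriptions over groups that share stages and libraries. Of genes with a mean log2 CPM of at least 2, those most like each member over the 24 groups were Y69A2AR.28 for ftn-1 (r = 0.936), dlc-2 for ftn-2 (0.978), T21C9.6 for smf-3 (0.915), C12D12.1 for hrg-1 (0.917) and gpx-5 for hrg-4 (0.946). The other 4 of the 5 most alike were F56D6.9, phf-34, sem-5 and spcs-3 for ftn-1, gst-27, ser-3, R05D7.1 and nlp-6 for ftn-2, cest-13, F20D6.5, F49C12.7 and ZK250.13 for smf-3, T03F7.7, W09D6.5, F28B4.3 and Y48G1BR.1 for hrg-1, and pqn-22, skpo-3, R193.2 and F46H5.7 for hrg-4. With stage means subtracted, hrg-7 was most like hrg-1 (r = 0.83), cyp-34A9 most like smf-3 (0.83) with ctl-2 (0.798) and ges-1 (0.784) among its 5, irg-3 most like ftn-2 (0.825), E03H4.8 most like ftn-1 (0.874) and C05C8.7 most like hrg-4 (0.814).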

How the data were processed

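Polyadenylated RNA of whole worms was sequenced as paired ends. Reads were trimmed (Trimmomatic), mapped with STAR 2.5.3a, which the submitters' processing notes also name, to WormBase release WS235, and assigned to genes by HTSeq. The deposited table holds unnormalized counts made by the authors, for 46748 genes in 82 library columns. The handling of reads matching more than 1 gene was not stated. Symbols and coordinates are of WBcel235 (Ensembl annotation), in which 43693 identifiers have a symbol. A pair of MYb65 libraries carry different stages in title and time point and were placed by the time point.

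Genes were filtered with filterByExpr (minimum count 10, minimum total 15, share 0.7), scaled by TMM and tested with edgeR 4.0.16 (glmQLFit, robust) in R 4.3.3, over all genes tested. Within a stage, MYb71 and MYb65 were fitted with OP50, and Mix in a model of all 4 groups. Across stages, stage and bacterium were terms. Log2 CPM used a prior count of 2. Alternatives were DESeq2 1.42.0, its size factors, upper-quartile scaling, no filter, other library sets, a replicate block and leaving out replicates. The procedure was run on simulated counts given the same dispersion for every gene, so that run does not cover members whose replicates spread widely. Libraries of a group differed by more than sampling noise in all 70 pairs (lowest chi-square per gene 7.77). Replicate numbers were taken as pairing 2 groups where 3 pairs of libraries each had deviations correlated above 0.1, as for OP50 and MYb71 at L2 (0.12 to 0.366) and L3 (0.366 to 0.634), from the data only. Total counts of 10513060 to 74552875 set the precision. The members, the gene lists, the tests and the choice to leave out replicate 3 were made with earlier results of these data known. Genes named are the 5 members, list genes that passed across stages or otherwise the 2 with the smallest p on MYb71, and the 5 genes most like each member.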

Additional observations from a re-analysis of the deposited data

Results flagged for a closer look

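With all 82 libraries, 11 groups held 4, and 5 of their 55 sets of member levels had a library whose gap to the nearest other passed Dixon's critical value, where chance gives about 1 in 20. The unused libraries labelled OP50 L2 replicate 3 and OP50 L3 replicate 3, which resembled Ad3 and Ad7, held ftn-1 at 49.1 and 53.0 CPM. On MYb71 hrg-1 stood apart at 27.0 CPM in L3 replicate 4 and at 11.5 CPM in Ad1 replicate 2. On MYb65 hrg-4 stood at 3.98 CPM in Ad3 replicate 1, a library slightly closer to the Ad1 mean (r = 0.982) than to its own (r = 0.98).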

How the results depend on the processing

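No member was called across stages on MYb71, MYb65 or Mix under any alternative, except 1 on Mix with all 82 libraries (ftn-1), and for the larval minus adult change except 1 on MYb71 with all 82 libraries (ftn-1, -1.57, adjusted p = 0.0472). Within stages 0 became 1 on each of MYb71, MYb65 and Mix with DESeq2 and 1 on each with a replicate block, hrg-4 at L3 each time, in block fits that called 0.724%, 0.478% and 0.403% of genes. The numbers of MYb65 and Mix share only 2 pairs with OP50 at L3 and are not known to pair. For MYb71 the pairing was read from these data only. With the block hrg-4 at L3 stood at 1.95 on MYb65 (adjusted p = 0.0302) and 1.87 on Mix (adjusted p = 0.027), and the block changed no other member's call against OP50, while over the steps it added hrg-4 from L4 to Ad1 on OP50 (-1.75, adjusted p = 0.0419) and MYb65 (-1.94, adjusted p = 0.034). Leaving out 1 library or replicate number gave 0 in each comparison with OP50. Of 25 tests over stage steps, MYb65 had 2 calls, against 5 with 80 libraries, 4 with DESeq2, 4 with upper-quartile scaling, 5 without the 3 used libraries closest to another stage (chosen after seeing the data), and 0 to 4 leaving out a replicate number. MYb71 had 5 calls, 3 without the filter and 1 to 7 leaving out a number, although no used MYb71 library was numbered 3. Mix had 3, 5 with upper-quartile scaling and 0 to 6 leaving out a number. OP50 had 3, 5 with DESeq2 and 1 to 5 leaving out a number. The mean of the 4 bacteria had 14, and 10 to 15 leaving out a number. Less the median of the intestine markers, the falls in the mean of 4 turned to 0.48 (L4 to Ad1) and 0.41 (Ad1 to Ad3) for ftn-2 and to 0.46 (L3 to L4), 0.15 (L4 to Ad1) and 0.17 (Ad1 to Ad3) for hrg-1. For ftn-2, which is expressed more widely, these markers are only a partial reference. The cause of these changes was not tested. The depth behind hrg-4 was as low as 4 counts in a library.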
